A study of Mus musculus with 6 samples.

Results

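The lysosome is the acidic compartment in which the cell degrades what it takes up by endocytosis and what it delivers by autophagy. Its work is divided between soluble hydrolases, proteins of its membrane and a proton pump, the V-ATPase, that acidifies it. Described here are 37 genes of this compartment in mouse liver, out of 55401 genes in the deposited expression table. They were chosen by gene symbol from a list of lysosomal enzymes, membrane proteins and V-ATPase subunits, together with *Tfeb* and *Tfe3*. The rule itself uses no measured value, although earlier results of these data were known when the list was written. By role they comprised 2 transcription factors, 6 membrane proteins, 7 proteases, 11 glycosidases and sulfatases, 6 lipid hydrolases and their activators and transfer proteins, and 5 proton pump genes.

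RNA-Seq measured the livers of 3 WT and 3 *Asgr1*-/- mice, with 1 library per mouse. All were males on a C57BL/6 background, 13 weeks old and fasted overnight, so the fast was common to both genotypes. The deletion was made by CRISPR/Cas9 with a pair of guides in zygotes and is present in the whole body, and WT and *Asgr1*-/- littermates came from breeding heterozygous mice. *Asgr1* encodes a subunit of the asialoglycoprotein receptor of hepatocytes, which binds glycoproteins that have lost sialic acid and carries them by endocytosis toward lysosomes, where the ligands are degraded. The comparison described here is whether the mRNAs of that destination differed between the genotypes.

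Transcription of many lysosomal genes is coordinated by TFEB and TFE3, factors that move into the nucleus when nutrients are scarce and bind a palindromic site known as the CLEAR element. Matches to the letters of this site are shown first, for the members whose promoters hold them. The search used RefSeq promoter windows of build GRCm38.p6, from 250 bases before to 50 bases after the gene start, for the letters TCACGTGA and for the shorter CACGTG that it contains. Both are palindromes, so each match counts for both strands. A window was found for 29 of the 37 genes, and none for *Npc1*, *Ctsb*, *Ctsh*, *Aga*, *Galns*, *Asah1*, *Atp6v0d2* and *Atp6v1h*. TCACGTGA was present in 6 of the 29 genes (20.7%), against 304 of 27025 genes in the whole table (1.12%) and 8 of 83 other genes of the lysosomal pathway (9.64%). CACGTG was present in 10 of 29 (34.5%), against 2187 genes (8.09%) and 21 of 83 pathway genes (25.3%). A match describes the sequence and does not show that a factor binds there. Since many lysosomal genes are known targets of these factors, the higher share in a list of lysosomal genes is not an independent result.

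The following 30-base windows are each written 5′ to 3′ on the gene's strand, with the motif in capitals. They show the same 8 letters at or before the RefSeq start of the genes for a membrane channel, 2 proteases, a glycosidase and 2 pump subunits. In *Atp6v0d1* they run across that start. Gene coordinates given further below are those of the deposited table, whose starts differ from the RefSeq starts. By them the windows of *Atp6v0d1* and *Gla* lie before the gene, and those of *Mcoln1*, *Ctsa*, *Ctsd* and *Atp6v1a* lie within it.
*Mcoln1*, chr8:3500462-3500491, plus strand, motif beginning 46 bases before the start: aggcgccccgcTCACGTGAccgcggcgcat
*Ctsa*, chr2:164833749-164833778, plus strand, 13 bases before the start: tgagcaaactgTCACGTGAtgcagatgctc
*Ctsd*, chr7:142387908-142387937, minus strand, 99 bases before the start: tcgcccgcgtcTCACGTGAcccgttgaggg
*Gla*, chrX:134601182-134601211, minus strand, 195 bases before the start: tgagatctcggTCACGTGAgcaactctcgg
*Atp6v0d1*, chr8:105566050-105566079, minus strand, 4 bases before the start: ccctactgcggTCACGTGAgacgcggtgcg
*Atp6v1a*, chr16:44139373-44139402, minus strand, 132 bases before the start: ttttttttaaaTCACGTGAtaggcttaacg
*Ctsa* and *Gla* each hold a second copy of the 8-base motif. The 4 genes with only the shorter motif were *Lamp1*, *Gaa*, *Ctsl* and *Arsa*, and *Lamp1* held 4 copies of it. The copy farthest from the start of *Lamp1*, and the single copies in *Gaa* and *Arsa*, are shown for comparison with the 8-base form.
*Lamp1*, chr8:13159088-13159117, plus strand, 61 bases before the start: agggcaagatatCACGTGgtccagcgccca
*Gaa*, chr11:119267811-119267840, plus strand, 140 bases before the start: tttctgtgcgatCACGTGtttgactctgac
*Arsa*, chr15:89477423-89477452, minus strand, 16 bases before the start: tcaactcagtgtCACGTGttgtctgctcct

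The counts summed to between 19842637 and 22080809 per library. *Asgr1* had 11716 to 15894 counts in WT livers and 36 to 62 in *Asgr1*-/- livers, in keeping with the labels. All 8 hepatocyte markers passed the filter for testing, led by albumin (*Alb*). It stood at 25652 to 29070 FPKM (counts scaled to exon length and library total) in WT and 21118 to 24967 FPKM in *Asgr1*-/- livers. Summed, the 8 measured 42747 to 47704 FPKM in WT and 40421 to 41783 FPKM in *Asgr1*-/- livers, a sum led by *Alb*. *Alb* and *Ttr* were the 2 of 8 lower in every *Asgr1*-/- liver, and 0 of the 8 passed the test given below. The WT livers were not alike in other cell types. Set against the mean of the WT group on a log2 scale, the 14 markers of Kupffer cells and other macrophages had a median of -1.67, -0.07 and 1.67 in WT livers 1 to 3. In *Asgr1*-/- livers 1 to 3 that median was 0.34, -0.06 and -0.42, and none of the 14 was at 0 in any liver. Values in sentences below follow this order of livers. In bulk tissue, fewer cells of a type and less RNA per cell cannot be told apart.

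Between the genotypes, the lysosomal genes tested differed little. *Atp6v0d2*, below the filter for testing, had 75, 60 and 26 counts in WT and 12, 13 and 10 in *Asgr1*-/- livers, and is described further below. Of the 37 genes, 35 had a mean of at least 1 FPKM over the 6 livers and were tested with edgeR's quasi-likelihood test, as rows of a fit on 10167 genes. At an adjusted p under 0.05, 0 of the 35 passed, where 30 of all genes tested did (0.295%). At an unadjusted p under 0.05 there were 4 (11.4% of the members against 15.5% of all genes tested), with *Ctsz* and *Gaa* higher and *Npc1* and *Asah1* lower in *Asgr1*-/- mice. That count was 9 without WT liver 1, 2 without *Asgr1*-/- liver 3, and 7 with the macrophage marker median as covariate or with every gene that had a count. The share of all genes under 0.05 was not counted in those settings, so these counts are no result about the members. DESeq2 on the same counts called 1 member, *Ctsz*, where it called 3.89% of all genes. The median log2 fold change of the 35 members was -0.04, against -0.02 over all genes tested, and single members ranged from -0.52 for *Asah1* to 0.39 for *Gusb*. All 35 estimates lay within 1.5-fold, as did 93.1% of all genes tested. For 27 of 35 (77.1%) the whole 95% interval lay within 1.5-fold, which held for 56.9% of all genes. The other 8 intervals reached past 1.5-fold on 1 side.

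**Figure D1:**
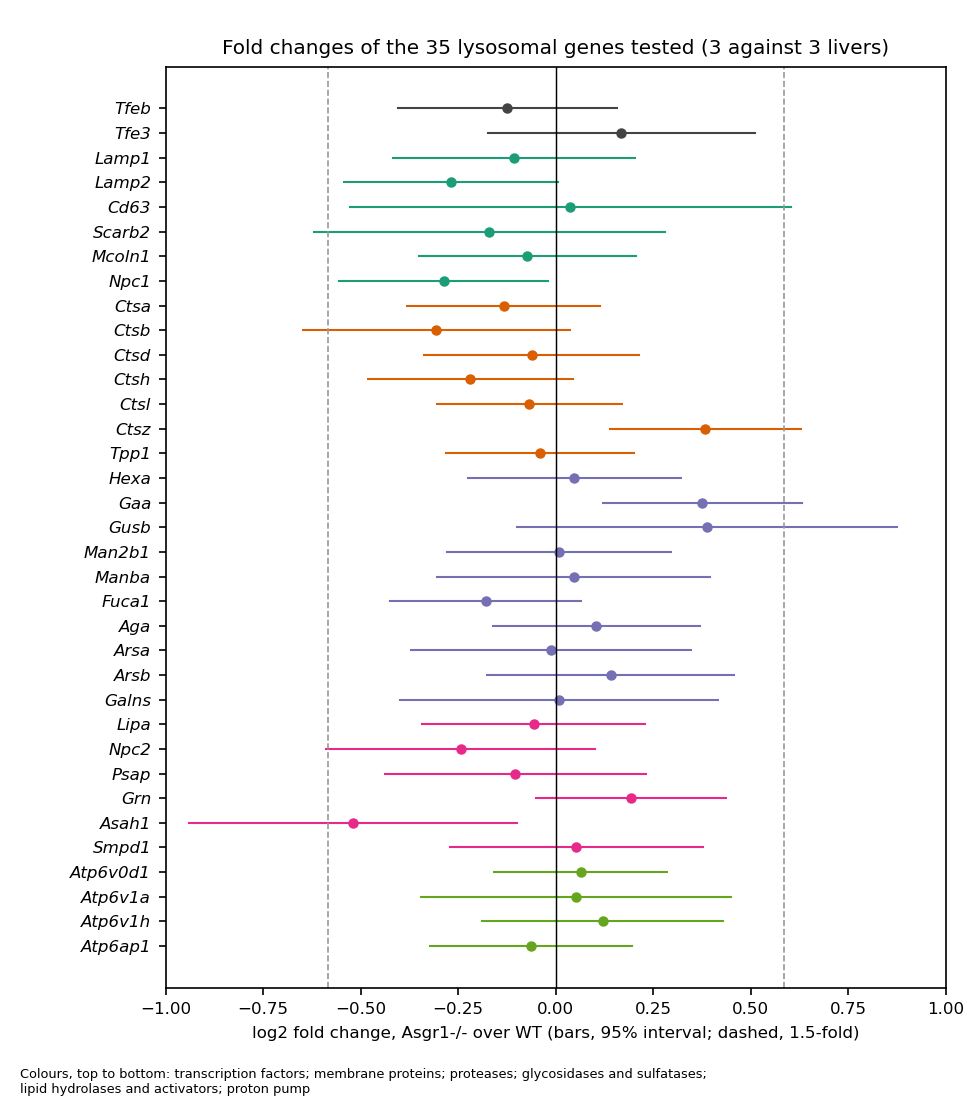
Log2 fold change (*Asgr1*-/- over WT) of each of the 35 lysosomal genes tested, as points with 95% intervals from edgeR, 3 livers a genotype, with dashed lines at 1.5-fold. The points range from -0.52 to 0.39 and none passed the adjusted threshold, and *Asah1* has its interval furthest to the left.

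Counted liver by liver, in CPM (counts scaled to a common library size with TMM factors), all *Asgr1*-/- livers lay beyond all WT livers for 6 of 35 members (17.1%), where 21.9% of all genes tested did so. *Ctsz*, *Gaa* and *Grn* were the tested members with higher values in every *Asgr1*-/- liver, and *Lamp2*, *Npc1* and *Asah1* those with lower values. The 3 on the lower side depend on the scaling. In FPKM, which the authors scaled to the library total, *Ctsz*, *Gaa*, *Aga* and *Grn* were higher without overlap. Of the tested members 0 were lower, in all 4 of 35 (11.4%) where 22.9% of all genes did not overlap. *Atp6v0d2*, below the filter, was lower in every *Asgr1*-/- liver in CPM and in FPKM.

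The genes spanned a wide range of levels. Per kilobase, the highest means over the 6 livers were those of *Ctsz* (235 FPKM), *Lamp1* (233 FPKM) and *Psap* (226 FPKM), whose livers overlapped one another, followed by *Ctsd* (125 FPKM) and *Ctsb* (92.0 FPKM). The lowest were *Cd63* (1.08 FPKM), *Gla* (0.942 FPKM) and *Atp6v0d2* (0.585 FPKM), and the last 2 fell below the filter. The 37 genes took 0.467% to 0.575% of all counts.

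**Figure D2:**
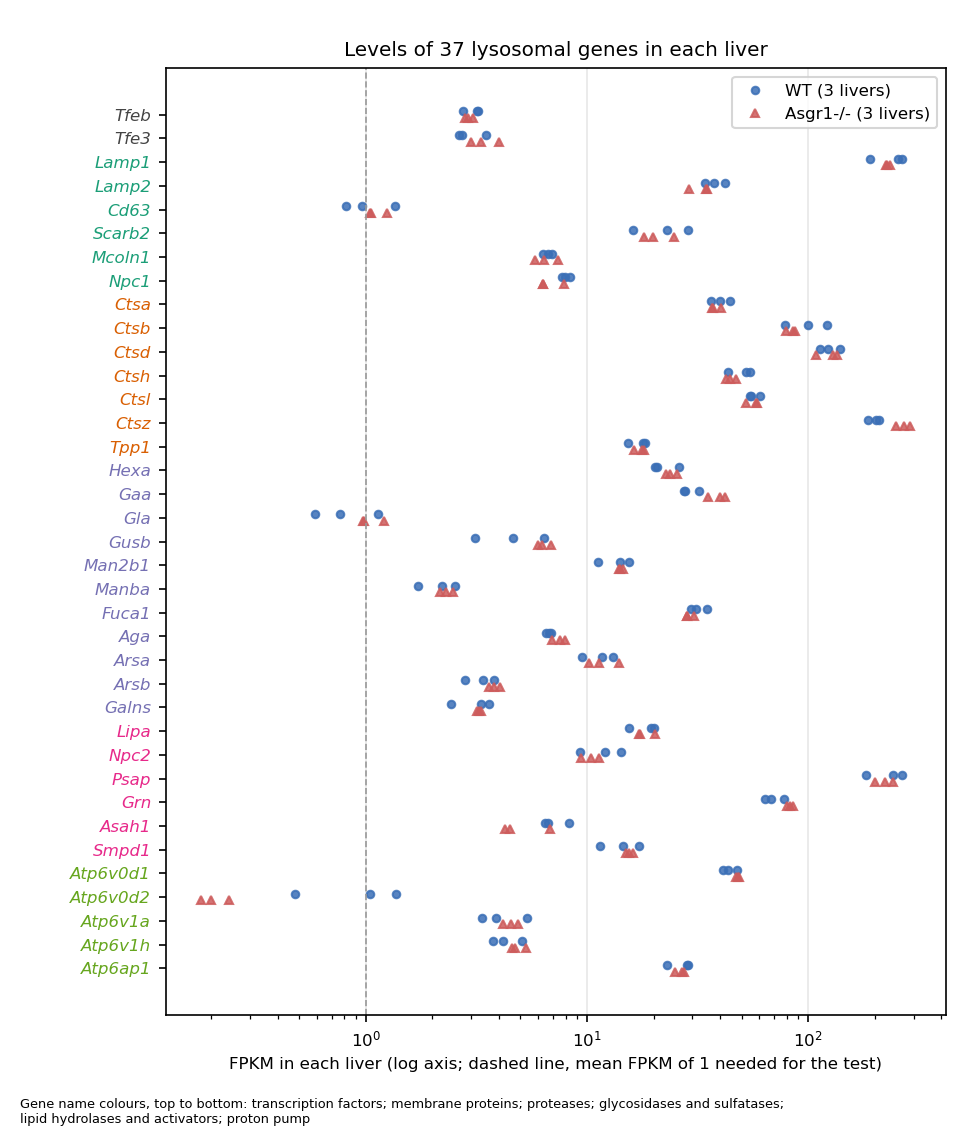
FPKM of the 37 lysosomal genes in each liver on a log axis, with circles for the 3 WT and triangles for the 3 *Asgr1*-/- livers and gene names coloured by class. Circles and triangles lie on or near one another for most genes, those of *Ctsz* and *Gaa* sit apart to the right in *Asgr1*-/- livers, and those of *Atp6v0d2* sit apart to the left.

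The transcription factors were expressed at low and similar levels. *Tfeb* (chr17:47737030-47792419, plus strand), whose product switches on lysosomal and autophagy genes, measured 19.0, 16.2 and 18.4 CPM in WT livers and 15.5, 16.3 and 17.3 CPM in *Asgr1*-/- livers. Its log2 fold change was -0.12 (standard error, SE, 0.125, adjusted p = 0.672). *Tfe3* (chrX:7762560-7775202, plus strand), its close relative with the same target site, measured 25.2, 26.3 and 33.0 CPM against 36.5, 27.5 and 30.9 CPM. The groups overlapped for both genes, and the log2 fold change of *Tfe3* was 0.17 (SE 0.152, adjusted p = 0.633). These factors act largely through their place in the cell, which mRNA does not measure.

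Among the 6 membrane proteins, 5 estimates were below 0 and the class median was -0.14, with 0 past the test. The median was -0.27 without WT liver 1 and -0.05 without WT liver 2. *Lamp1* (chr8:13159161-13175338, plus strand), which with LAMP2 makes up much of the protein of the lysosomal membrane, measured 525, 714 and 725 CPM in WT and 615, 598 and 609 CPM in *Asgr1*-/- livers. The WT livers spanned the *Asgr1*-/- livers, and the log2 fold change was -0.11 (SE 0.138, adjusted p = 0.748). *Lamp2* (chrX:38401357-38456454, minus strand), needed for the fusion of autophagosomes with lysosomes, measured 340, 419 and 363 CPM against 327, 327 and 278 CPM. The groups did not overlap in CPM, by a gap that is small beside the WT spread, and the log2 fold change was -0.27 (SE 0.122, adjusted p = 0.333). *Npc1* (chr18:12189692-12236400, minus strand), the membrane protein that moves cholesterol out of the lysosome, measured 93.6, 98.7 and 88.7 CPM against 70.3, 88.3 and 71.7 CPM. *Asgr1*-/- liver 2 came within 1 CPM of the lowest WT liver, and the log2 fold change was -0.29 (SE 0.119, adjusted p = 0.290).

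The other membrane proteins overlapped between genotypes. *Mcoln1*, a cation channel that releases calcium from the lysosome and holds a CLEAR element, had a log2 fold change of -0.07 with 48.7 to 54.2 CPM in WT and 43.3 to 56.3 CPM in *Asgr1*-/- livers. *Scarb2*, the receptor that carries glucocerebrosidase to the lysosome, ranged from 105 to 188 CPM in WT, wider than its 114 to 152 CPM in *Asgr1*-/- livers, with a log2 fold change of -0.17 that was 0.05 without WT liver 2 and -0.36 without WT liver 1. *Cd63*, a tetraspanin of late endosomes, stood at 3.09 to 5.10 CPM against 3.77 to 4.56 CPM, a log2 fold change of 0.04 with a standard error of 0.251. A pseudogene, *Cd63-ps*, had 2 to 10 counts per liver, and reads could have been split between the 2 copies.

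Of the 7 proteases, cathepsin Z alone was clearly separated by liver. *Ctsz* (chr2:174427493-174439039, minus strand), a cysteine protease that removes amino acids from the carboxyl end of peptides, measured 313, 279 and 297 CPM in WT and 383, 358 and 419 CPM in *Asgr1*-/- livers. Every *Asgr1*-/- liver was above every WT liver, and the smallest gap was wider than the spread of the WT livers. The fold change was 1.30, a log2 value of 0.38 (SE 0.109, 95% interval 0.14 to 0.63), with an adjusted p of 0.156 from edgeR and 0.0337 from DESeq2. An exact permutation test, two-sided, returned p = 0.1, below which 3 mice against 3 cannot go. Every gene whose groups do not overlap returns this value (21.9% of all genes tested), so it adds nothing to the separation by liver. Among the WT livers *Ctsz* was highest in WT liver 1, which was the lowest in macrophage markers. It shares 10 exonic bases (0.694%) with the neighbouring *Nelfcd*, whose log2 fold change was -0.01. The parts of macrophage transcripts and of *Nelfcd* in the *Ctsz* values were not tested.

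*Ctsb* (chr14:63122462-63145923, plus strand), a cysteine protease and the highest in FPKM of the members' cathepsins after *Ctsz* and *Ctsd*, measured 490, 631 and 748 CPM in WT and 504, 524 and 483 CPM in *Asgr1*-/- livers. WT liver 1 lay among the *Asgr1*-/- livers, and the 3 WT livers stood in the order of their macrophage markers. The log2 fold change was -0.31 (SE 0.152, adjusted p = 0.370), and it was -0.15 without WT liver 3 and -0.45 without WT liver 1. Of its exonic bases, 12.8% overlap those of *Fdft1* on the opposite strand, itself lower in every *Asgr1*-/- liver with a log2 fold change of -0.99 (adjusted p = 0.134). Whether the counting used strand is not given in the sources used here, and the part of *Fdft1* in the *Ctsb* counts was not tested.

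The remaining 5 proteases had estimates from -0.22 to -0.04. *Ctsd*, the aspartic protease of the lysosome, ranged from 274 to 332 CPM in WT and from 255 to 310 CPM in *Asgr1*-/- livers. *Ctsl*, a cysteine endopeptidase, ranged from 364 to 406 CPM against 338 to 378 CPM, and *Ctsa*, a carboxypeptidase that also protects neuraminidase and beta-galactosidase, from 178 to 213 CPM against 169 to 190 CPM. *Ctsh*, an aminopeptidase, had a log2 fold change of -0.22 and *Tpp1*, which removes tripeptides, one of -0.04. *Ctsa* and *Ctsd* hold the 8-base motif and *Ctsl* the shorter one, and the log2 fold changes of these 3 were -0.13, -0.06 and -0.07. Part of their counts is uncertain, since *Ctsd* shares 34.4% of its exonic bases with *Gm49369* on the same strand and *Ctsl* 26.8% with *Gm47123* on the opposite strand. *Ctsa* shares 10.5% with *Pltp* and 6.87% with *Neurl2*, both on the opposite strand, whose log2 fold changes were -0.94 and -0.44 and did not pass the test.

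Glycosidases and sulfatases, which take apart the sugar chains of glycoproteins, glycolipids and proteoglycans, had a class median of 0.05, with 8 of the 10 tested above 0 and 0 past the test. *Gaa* (chr11:119267887-119285454, plus strand), the acid alpha-glucosidase that degrades glycogen, measured 136, 138 and 156 CPM in WT and 188, 168 and 203 CPM in *Asgr1*-/- livers. The groups did not overlap in CPM or in FPKM, and the fold change was 1.30, a log2 value of 0.38 (SE 0.113, adjusted p = 0.173). *Gusb* (chr5:129989011-130003049, minus strand), the beta-glucuronidase, measured 14.7, 21.9 and 29.4 CPM against 30.6, 27.2 and 28.5 CPM. WT liver 3 lay among the *Asgr1*-/- livers, and WT liver 1 was far below them. The log2 fold change was 0.39 (SE 0.217, adjusted p = 0.424), and without WT liver 3 it was 0.65 and without WT liver 1 it was 0.17.

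For the other glycosidases and sulfatases the genotypes overlapped. *Hexa*, the alpha subunit of beta-hexosaminidase, and *Man2b1* and *Manba*, the alpha- and beta-mannosidases, had log2 fold changes of 0.05, 0.01 and 0.05. *Fuca1*, which removes fucose, and *Aga*, which splits the bond between sugar and asparagine, gave -0.18 and 0.10. The sulfatases *Arsa*, which acts on sulfatide, *Arsb* and *Galns*, which act on glycosaminoglycans, gave -0.01, 0.14 and 0.01. *Arsb* shares 32.3% of its exonic bases with *Gm26527* and *Arsa* 18.8% with *C230037L18Rik*, both on the opposite strand. *Gla*, the alpha-galactosidase A, fell below the filter with 50, 79 and 39 counts in WT and 87, 63 and 65 counts in *Asgr1*-/- livers, and its groups overlapped.

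Genes of lipid breakdown had a class median of -0.08, with 2 estimates above 0 and 4 below, and the median was -0.20 without WT liver 1 and -0.0082 without WT liver 3. *Psap* (chr10:60277627-60302597, plus strand), the precursor of the saposins that present sphingolipids to their hydrolases, measured 517, 691 and 741 CPM in WT and 650, 549 and 615 CPM in *Asgr1*-/- livers. The WT livers spanned the *Asgr1*-/- livers, with a log2 fold change of -0.10 (SE 0.149, adjusted p = 0.783) that was 0.0029 without WT liver 3. *Grn* (chr11:102430315-102437048, plus strand), whose product progranulin is cut into granulins in the lysosome, measured 246, 231 and 276 CPM against 283, 277 and 299 CPM. Its groups did not overlap, by a gap of about 1 CPM between WT liver 3 and *Asgr1*-/- liver 2, and the log2 fold change was 0.19 (SE 0.108, adjusted p = 0.428).

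*Asah1* (chr8:41340197-41374773, minus strand), the acid ceramidase that splits ceramide into sphingosine and a fatty acid, had the lowest estimate of the members tested. It measured 23.3, 22.9 and 28.7 CPM in WT and 22.5, 14.4 and 15.2 CPM in *Asgr1*-/- livers. *Asgr1*-/- livers 2 and 3 lay well below the WT livers, while *Asgr1*-/- liver 1 was next to WT liver 2 in CPM and above it in FPKM (6.77 against 6.49). The log2 fold change was -0.52 (SE 0.187, 95% interval -0.94 to -0.10, adjusted p = 0.234).

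*Lipa*, the acid lipase that hydrolyses cholesteryl esters and triglycerides delivered by lipoproteins, measured 109, 141 and 135 CPM in WT and 135, 116 and 119 CPM in *Asgr1*-/- livers, a log2 fold change of -0.06 (SE 0.127). *Npc2*, the soluble protein that hands cholesterol to NPC1, had a log2 fold change of -0.24 (SE 0.153), with 52.3, 68.1 and 78.4 CPM in WT and 60.7, 50.6 and 56.7 CPM in *Asgr1*-/- livers. *Smpd1*, the acid sphingomyelinase, gave 0.05. For *Lipa* the *Asgr1*-/- livers lay inside the WT range, and for *Npc2* they lay in or below its lower part.

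The V-ATPase couples a V1 sector, which hydrolyses ATP in the cytosol, to a V0 sector in the membrane through which protons pass. The 4 pump genes tested had log2 fold changes from -0.06 to 0.12. *Atp6v1h* (chr1:5070018-5162529, plus strand), a V1 subunit needed for activity, measured 51.1, 42.1 and 37.1 CPM in WT and 45.3, 51.5 and 44.9 CPM in *Asgr1*-/- livers, with overlap and a log2 fold change of 0.12 (SE 0.137, adjusted p = 0.717). *Atp6v1a*, the catalytic V1 subunit, and *Atp6ap1*, an accessory protein of the pump's assembly, gave 0.05 and -0.06.

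The d subunit, which joins the sectors, has a pair of genes whose values differed. *Atp6v0d1* (chr8:105524465-105566047, minus strand), the form found in most tissues, measured 80.4, 77.0 and 87.2 CPM in WT and 84.3, 86.5 and 84.8 CPM in *Asgr1*-/- livers, a log2 fold change of 0.06 (SE 0.0986, adjusted p = 0.799). *Atp6v0d2* (chr4:19876841-19922605, minus strand), a form known from osteoclasts, macrophages and kidney, had 75, 60 and 26 counts in WT and 12, 13 and 10 counts in *Asgr1*-/- livers. In FPKM it stood at 1.37, 1.04 and 0.48 against 0.20, 0.24 and 0.18, and the groups did not overlap. At a mean of 0.585 FPKM it was not among the genes tested. Its exact permutation p, two-sided, was 0.1, the lower limit of the design, which any gene without overlap returns.

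With the filter lowered to 0.1 FPKM, *Atp6v0d2* had a log2 fold change of -2.24 (SE 0.446) with an adjusted p of 0.0605, where 0.424% of 16512 genes were called. With every gene that had a count it was -2.26 with an adjusted p of 7.1e-05, where 2.5% of genes were called. That fit gave *Ctsz* a larger SE than the main fit (0.138 against 0.109) but a smaller unadjusted p (0.00494 against 0.00616). Its p-values thus rest less on each gene's spread between livers, and the 7.1e-05 carries that limit. For *Atp6v0d2*, alternatives at 0.1 FPKM were chosen after the data were seen. They gave adjusted p values of 0.00123 with DESeq2, 0.00262 with the macrophage marker median as a covariate and 0.0554 with a replicate block. Without WT liver 3, the lowest of the WT livers, the log2 fold change was -2.59 and the adjusted p was 0.00147, and leaving out any other liver gave adjusted p values of 0.125 to 0.287. The direction was the same in all of these. Among WT livers its order was the reverse of the macrophage markers, as WT liver 1 had the lowest markers and the highest *Atp6v0d2*. Of 6 lymphocyte markers, 1 was tested, *Ighm*, the heavy chain of IgM, which had 259, 203 and 421 counts in WT and 78, 65 and 54 in *Asgr1*-/- livers (adjusted p = 0.0215). The other 5 had 0 to 19 counts per liver, and their groups overlapped. Their mean CPM in *Asgr1*-/- livers was lower for *Cd3e* and *Cd79a* and higher for *Cd3g*, *Nkg7* and *Ms4a1*. The parts of macrophage and lymphocyte transcripts in the *Atp6v0d2* values were not tested.

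**Figure D3:**
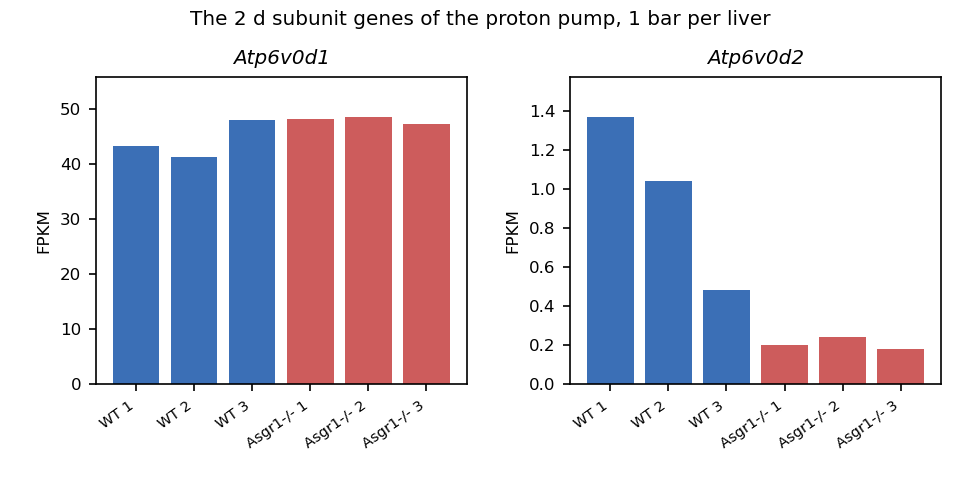
FPKM of the V-ATPase d subunit genes in each liver, 1 bar per liver, WT in blue and *Asgr1*-/- in red, with a separate axis from 0 for each gene. *Atp6v0d1* stands at similar height in every liver, and *Atp6v0d2* falls from 1.37, 1.04 and 0.48 FPKM in WT livers to between 0.18 and 0.24 FPKM in *Asgr1*-/- livers.

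Within the WT group, a larger share of the members than of all genes stood in the order of the macrophage markers. *C1qb* and *C1qa*, complement genes of resident macrophages and the markers with the highest mean level, measured 8.85, 23.0 and 79.9 FPKM and 8.59, 24.6 and 70.9 FPKM in WT livers 1, 2 and 3. In *Asgr1*-/- livers they measured 37.9, 27.8 and 22.7 FPKM and 30.0, 27.8 and 25.1 FPKM. Of the 35 members tested, 14 (40.0%) rose across the WT livers in this order, where 19.1% of all genes tested did. They were *Tfe3*, *Lamp1*, *Cd63*, *Ctsb*, *Ctsd*, *Hexa*, *Gaa*, *Gusb*, *Man2b1*, *Manba*, *Galns*, *Npc2*, *Psap* and *Smpd1*. In the reverse order stood 4 (11.4%, against 19.1% of all genes), *Mcoln1*, *Ctsl*, *Arsa* and *Atp6v1h*. These shares are descriptions of 3 livers, which differed in more than 1 cell type. Of the markers tested, 11 of 12 for liver endothelial cells and 5 of 7 for stellate cells and fibroblasts rose in the same order. In *Asgr1*-/- livers 1 to 3, the median log2 level of the members relative to the WT mean was 0.02, -0.02 and -0.02. That of the macrophage markers was 0.34, -0.06 and -0.42.

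The differences of the members among WT livers were small beside those of the macrophage markers. The median log2 ratio of WT liver 3 over WT liver 1 was 0.25 for the members and -0.01 for all genes tested. It was 3.42 for macrophage markers, 1.14 for liver endothelial cell markers, 0.94 for stellate cell and fibroblast markers, 2.22 for the 3 tested of 5 cholangiocyte markers and 0.02 for hepatocyte markers. By class it was largest for lipid hydrolases and activators (0.41) and glycosidases and sulfatases (0.29), and lowest for the proton pump (0.15). The largest ratios of single members were those of *Gusb* (1.00), *Cd63* (0.72) and *Ctsb* (0.61), and 27 of 35 members were higher in WT liver 3 (77.1%, against 49.4% of all genes). Summed over all 37 members, the level was 4833, 5637 and 5844 CPM in WT and 5322, 5048 and 5224 CPM in *Asgr1*-/- livers. The macrophage markers summed to 98.7, 276 and 910 CPM and to 355, 280 and 222 CPM in the same livers, and the endothelial markers to 232, 310 and 494 CPM and to 371, 270 and 287 CPM. For both sets of markers and for the members, WT liver 1 was the lowest of the 6 and WT liver 3 the highest. The spread of WT livers, as SD of log2 CPM, exceeded that of *Asgr1*-/- livers for 27 of 35 members (77.1%), and for 66.2% of all genes.

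**Figure D4:**
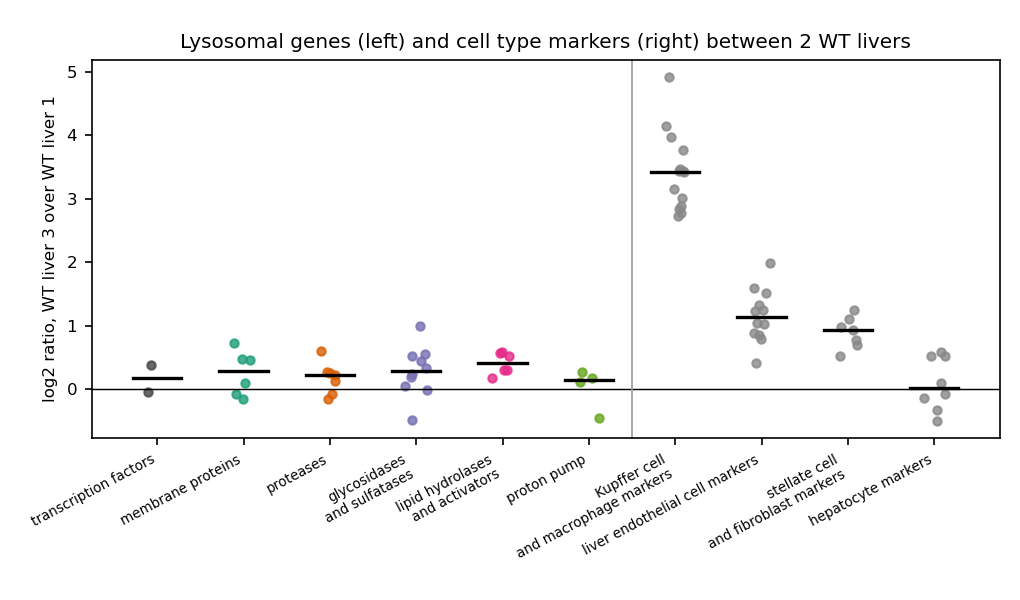
Log2 ratio of WT liver 3 over WT liver 1 for each tested lysosomal gene by class (left of the line) and for markers of 4 cell types (right, grey), with black bars at the medians. Macrophage markers run from 2.72 (*Clec4f*) to 4.91 (*Marco*), with a median of 3.42. Lysosomal genes lie mostly between 0 and 1, and hepatocyte markers scatter around 0.02.

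Between the genotypes, 0 of the 14 macrophage markers passed the test, and their median log2 fold change was -0.64, which became 0.64 without WT liver 3 and -1.10 without WT liver 1. The members' median log2 fold change stayed between -0.11 and 0.0085 when any single liver was left out, and was -0.04 with the macrophage marker median in the model. The number of members with an estimate below 0 was 19 of 35 and became 25 of 35 without WT liver 1.

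Some markers of cholangiocytes, the cells of the bile ducts, differed between the genotypes as well as among WT livers, but 0 of the 3 tested passed the test. *Krt19*, a keratin of these cells, had 32, 44 and 154 counts in WT and 185, 181 and 188 counts in *Asgr1*-/- livers. *Epcam*, an adhesion protein of their surface, had 17, 50 and 124 counts against 149, 177 and 166 counts. Both were higher in every *Asgr1*-/- liver than in any WT liver, as was *Krt7*, with adjusted p values of 0.281 for *Krt19* and 0.277 for *Epcam* from edgeR and too low a level in *Krt7* to test. *Sox9* and *Spp1* overlapped between the genotypes, and none of the 5 was at 0 in any liver. Summed, the 5 markers measured 39.3 to 52.3 CPM in WT and 51.8 to 64.7 CPM in *Asgr1*-/- livers. The part of cholangiocyte transcripts in the values of *Ctsz*, *Gaa* and *Grn*, also higher in every *Asgr1*-/- liver, was not tested.

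**Figure D5:**
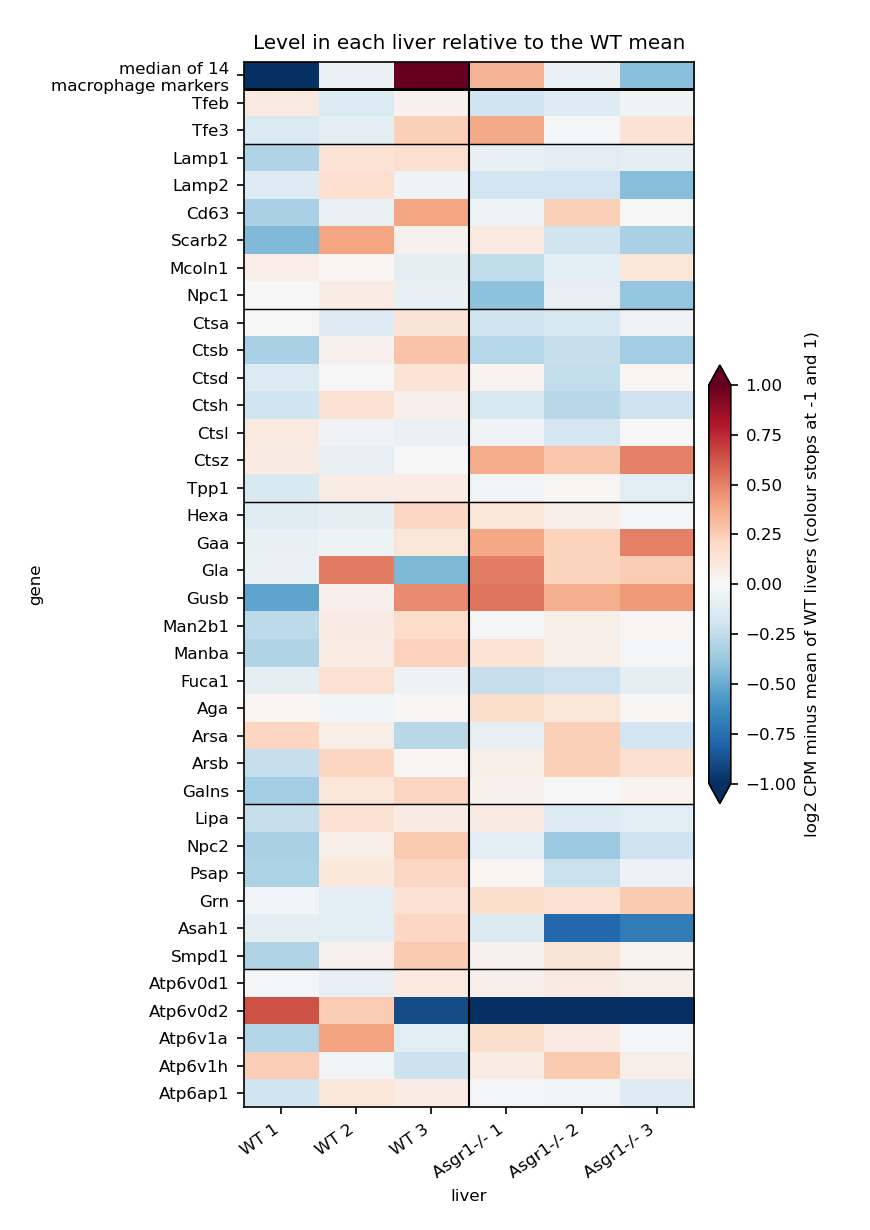
Level of each lysosomal gene in each liver, as log2 CPM minus the mean of the WT livers, with the median of 14 macrophage markers in the top row and classes separated by lines. Colour stops at -1 and 1. WT liver 1 is mostly blue and WT liver 3 mostly red, as in the top row. Through all 3 WT livers, 14 of the 35 genes tested follow the order of that row. The *Asgr1*-/- columns show *Ctsz*, *Gaa* and *Gusb* in red and *Asah1* and *Atp6v0d2* in blue.

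The wider pathway was described with 101 further genes in 6 lists, of which 85 were tested. By edgeR 0 passed, and 12 had an unadjusted p under 0.05 (14.1%, against 15.5% of all genes tested), 3 higher and 9 lower. In 20 of 85 (23.5%, against 21.9% of all genes) the *Asgr1*-/- livers lay beyond all WT livers. The list medians ran from -0.11 for other membrane proteins to 0.05 for autophagy genes that TFEB targets. That last list held both directions, since of its 8 tested genes 3 were higher in every *Asgr1*-/- liver (*Sqstm1*, *Uvrag* and *Vps18*) and 3 lower (*Wipi1*, *Map1lc3b* and *Gabarapl1*), in all 75.0%. The 3 lower genes were also those with an unadjusted p under 0.05 (37.5%), and 0 of the 8 passed after adjustment. The smallest p of all was that of *Scpep1*, a retinoid-inducible serine carboxypeptidase, which measured 35.9, 43.8 and 42.0 CPM in WT and 24.5, 17.4 and 24.0 CPM in *Asgr1*-/- livers. The groups were far apart, with a log2 fold change of -0.88 (SE 0.157) and an adjusted p of 0.0547 that fell to 1.1e-04 with DESeq2.

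In each of the other lists the gene with the smallest p did not pass edgeR's test at the main filter either. *Slc17a5*, the exporter of sialic acid from the lysosome, measured 23.5, 25.8 and 20.7 CPM in WT and 16.1, 18.9 and 15.8 CPM in *Asgr1*-/- livers, without overlap, a log2 fold change of -0.46 (adjusted p = 0.167). *Wipi1*, which binds the phosphoinositide of forming autophagosomes, measured 16.1, 13.7 and 13.4 CPM against 8.60, 9.27 and 10.3 CPM, a log2 fold change of -0.62. Its adjusted p was 0.108 by edgeR, 0.0345 by DESeq2, 0.0391 with the macrophage marker median as covariate and 0.0459 with every gene that had a count. *Fnip1*, a partner of folliculin in signalling from the lysosome to TFEB, measured 17.6, 16.3 and 10.8 CPM against 10.4, 9.12 and 7.97 CPM, a log2 fold change of -0.70 (adjusted p = 0.164). All 3 were lower in every *Asgr1*-/- liver. *Sort1*, a receptor that sorts proteins toward lysosomes, and *Tcirg1*, a V0 subunit, had log2 fold changes of 0.58 (adjusted p = 0.256) and 0.40 (adjusted p = 0.263), and their groups overlapped.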

How the data were processed

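RNA-Seq was made from 6 livers, 3 WT and 3 *Asgr1*-/-, with groups taken from the labels. The authors deposited raw read counts, FPKM and the exonic size of 55401 genes of GRCm38. The submitters' notes name DESeq2 1.6.3. Which aligner, counter and strand setting were used was not given in the sources used here. By recomputation, FPKM from counts, exonic size and library total differed from the deposited FPKM by at most 0.005.

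Counts were tested with edgeR 4.0.16 in R 4.3.3 (TMM, quasi-likelihood F test, two-sided) on genes with a mean of at least 1 FPKM, with Benjamini-Hochberg adjustment over all 10167 genes. Standard errors came from the F statistic. The code was tested on simulated data. CPM used TMM library sizes. Named in full were *Tfeb*, *Tfe3*, in each class the gene with the highest mean FPKM and the 2 with the smallest p, and both d subunit genes, and in each pathway list the gene with the smallest p. *Lipa* and other members were added to these with part of their values.

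Alternatives were DESeq2 1.42.0, its size factors, 2 other filters, a replicate block, the macrophage marker median as covariate and leaving out each liver. The members and lists were chosen with earlier results of these data known. The labels do not pair livers by number, and p-values measure the spread between these mice. With every gene that had a count, p-values rested less on each gene's own spread between livers. No library repeated another, and no batch is labelled. The GO columns were not used.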

Additional observations from a re-analysis of the deposited data

How the results depend on the processing

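Over all genes tested, edgeR called 30, and the count was 396 with DESeq2, 70 with the filter at 0.1 FPKM, 618 with every gene that had a count, 347 with the macrophage marker median as covariate, and 3 to 319 when 1 liver was left out (319 without WT liver 3, 44 without WT liver 1 and 11 without WT liver 2). The cause of these differences was not tested. Calls among the members were 0 with edgeR, 1 with DESeq2 (*Ctsz*), 1 with every gene that had a count (*Atp6v0d2*), and 0 to 0 when a liver was left out. Among the other pathway genes they were 0 with edgeR, 3 with DESeq2 (*Scpep1*, *Ctsc*, *Wipi1*), 1 at 0.1 FPKM (*Scpep1*), 5 with every gene that had a count (these 3, *Fnip1* and *Sort1*), 3 with the covariate (*Scpep1*, *Ctsc*, *Wipi1*) and 0 to 3 when a liver was left out (1 without WT liver 1, which was *Ctsc*, and 3 without WT liver 3, which were *Scpep1*, *Fnip1* and *Sort1*). The median log2 fold change of the members kept within the spread between livers in all 12 alternatives (-0.11 to 0.0085 when a liver was left out), and that of the macrophage markers ranged from -1.10 to 0.64. *Psap* went from -0.10 to 0.0029 without WT liver 3 and was -0.24 at its lowest. The shorter motif raised the promoters with a match from 6 to 10. With a replicate block, 23 genes and 0 members were called, and same-numbered livers did not deviate together (correlations of -0.107, 0.0718 and -0.0229), so the numbers were not used as pairs. The block changed no call among the members. With 3 livers a genotype, the 95% intervals of 8 members reached past 1.5-fold, and *Gla* and *Atp6v0d2* had under 100 counts in each liver.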

Other observations

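Some pathway genes outside the 37, named here after their values were seen, followed the macrophage markers across the WT livers more steeply than any member did. *Ctss*, cathepsin S, a protease of antigen presenting cells, measured 5.09, 12.9 and 40.3 CPM in WT livers 1, 2 and 3 and 20.3, 14.3 and 11.3 CPM in *Asgr1*-/- livers. *Laptm5*, a lysosomal membrane protein of blood cells, measured 3.39, 9.15 and 30.5 CPM in WT livers, and its highest *Asgr1*-/- liver stood at 14.9 CPM. *Lgmn*, the asparaginyl endopeptidase legumain, measured 22.8, 36.0 and 72.2 CPM against 52.7, 41.1 and 34.6 CPM. For all 3 the WT livers spanned the *Asgr1*-/- livers.

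*Ctsc*, the dipeptidyl peptidase that activates serine proteases of immune cells, also named after its values were seen, measured 27.9, 55.5 and 65.3 CPM in WT and 29.1, 30.8 and 26.0 CPM in *Asgr1*-/- livers. WT livers 2 and 3 lay far above the other 4, and WT liver 1 lay among the *Asgr1*-/- livers. Its log2 fold change was -0.79 (adjusted p = 0.205 from edgeR), and -1.08 without WT liver 1 (adjusted p = 0.0149). With the macrophage marker median as a covariate it was -0.71 (adjusted p = 0.0238).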
